A study of Homo sapiens with 4 samples.

Results

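SOX2, PAX6, OLIG2, NEUROG2, MYOD1, NKX2-5, GATA4, GATA6, HNF4A and FOXA2 are transcription factors that direct cell lineages outside the blood. They are 10 of 19970 protein-coding genes on chromosomes 1 to 22 and X of GENCODE release 44, and were taken by name. Their chromatin was examined in HG00731, a lymphoblastoid cell line, that is, B cells immortalised with Epstein-Barr virus. The titles of all samples name this line, while the label on growth names HG00721. All samples came from this 1 line, so there is no group in which these lineages are active. SMC1, a subunit of cohesin, was captured by HiChIP after double fixation with formaldehyde and EGS, and CTCF by HiChIP after formaldehyde alone, each in 2 replicates. The deposited lists pool both replicates, so no value below has a spread between replicates and the targets were not tested against each other.

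HiChIP combines immunoprecipitation with proximity ligation, and so gives both the sites that a protein occupies and the pairs of distant sites that were ligated together. Cohesin moves along DNA and extrudes loops, and CTCF bound to its motif can hold it back, so that many loops end at CTCF sites. At developmental transcription factor genes such sites are known to separate or bring together long regulatory landscapes, which in cells of another lineage are often covered by Polycomb proteins. Peaks were counted when their summit lay in the gene body or within 50 kb of the gene start, and loops when an anchor, a bin of 5 kb, lay within 5 kb of any transcript start. The significance of a peak is its -log10 q-value and its height is given as fold enrichment, the summit's signal divided by the background around it.

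A CTCF summit with a motif match is shown for each of SOX2, NEUROG2, FOXA2 and HNF4A. Of the 37 CTCF peaks at the 10 genes, 20 had such a match. For SOX2 the summit is the nearest to the start, and for the others it is that of the strongest CTCF peak. The sequences are the 60 bases around the summit, with the CTCF motif in capitals. All are the plus strand of hg38, and lie at chr3:181709679-181709738 for SOX2, chr4:112523880-112523939 for NEUROG2, chr20:22586825-22586884 for FOXA2 and chr20:44311341-44311400 for HNF4A.
SOX2: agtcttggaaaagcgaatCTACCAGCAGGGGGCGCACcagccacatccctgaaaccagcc
NEUROG2: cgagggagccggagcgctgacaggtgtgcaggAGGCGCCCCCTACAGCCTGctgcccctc
FOXA2: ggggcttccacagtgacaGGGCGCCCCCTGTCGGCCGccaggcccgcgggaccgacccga
HNF4A: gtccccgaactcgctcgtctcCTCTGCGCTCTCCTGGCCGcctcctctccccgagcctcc

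The motif was a matrix of 19 bp learned from the CTCF summits themselves, with TGGCCACCAGGGGGCGCCG as its most frequent bases, and both strands were searched. The SOX2 match reached 17.8 bits on the plus strand and the FOXA2 match 17.03 bits on the minus strand. The NEUROG2 match reached 13.5 bits and the HNF4A match 12.6 bits, both on the minus strand. The minimum for a match was 7 bits. None of the CTCF peaks at the 10 genes was among the 3000 summits from which the matrix was learned.

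The SMC1 list held 96855 peaks and the CTCF list 62869 on chromosomes 1 to 22 and X. The loop list labelled SMC1 held 28012 loops with 788356 read pairs, and the list labelled CTCF 80487 loops with 2666327 read pairs. These are the read pairs within called loops and not the sequencing depth. The numbers of loops are the reverse of what the text of the study gives for the targets, so loops are named here by the label of their list only. Every loop labelled CTCF had an SMC1 peak at an anchor and 95.3% had a CTCF peak, whereas every loop labelled SMC1 had a CTCF peak and 99.96% an SMC1 peak. Per the study, a called loop has an anchor enriched in the captured protein. No CTCF peak lay at an anchor of 3745 loops labelled CTCF, and no SMC1 peak at an anchor of 11 labelled SMC1. Both the numbers of loops and these peaks thus point to exchanged labels. The labels below are kept as deposited and do not establish the captured protein. For comparison, 16 transcription factors of B cells, a list chosen with earlier results of these data known, were counted in the same way. Of these, 15 had an SMC1 peak at a transcript start, and all 16 had a loop in both lists. The lists hold no expression values, and none of the genes was shown to be silent or active.

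All 10 genes had both SMC1 and CTCF peaks in their windows, and 4 had an SMC1 peak and 4 a CTCF peak at a start. There were 36 SMC1 and 37 CTCF peaks, between 1 and 5 SMC1 peaks and between 1 and 7 CTCF peaks per gene. Over all protein-coding genes, 92.5% had an SMC1 peak in a window of this kind and 92% a CTCF peak, so the presence of peaks did not set these genes apart. An SMC1 summit lay within 1 kb of a transcript start in 4 of the 10 genes, PAX6, NEUROG2, MYOD1 and GATA6, beside 62.6% of all protein-coding genes. A CTCF summit lay within 1 kb of a start in 4 of the 10, OLIG2, MYOD1, GATA6 and FOXA2, beside 46.7% of all, so this count lay near the background.

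Most peaks at starts lay below the median of such peaks. The SMC1 summit had a -log10 q-value of 47.7 at NEUROG2, 9.51 at GATA6, 6.70 at PAX6 and 3.36 at MYOD1, and the median over 17859 such peaks at all protein-coding genes was 21.5. The CTCF summit had a -log10 q-value of 24.2 at GATA6, 13.0 at MYOD1, 8.80 at OLIG2 and 4.66 at FOXA2, beside a median of 19.8 over 11562 peaks. For each target, 1 of the 4 peaks lay above the median. Just outside the limit of 1 kb lay the SMC1 summits of GATA4 at 1246 bp and FOXA2 at 1379 bp from a start, and the CTCF summits of NEUROG2 at 1209 bp and PAX6 at 1666 bp. With a limit of 2 kb, 6 of the 10 genes had an SMC1 peak and 6 a CTCF peak, beside 68.5% and 54.6% of all protein-coding genes, and once peaks below a -log10 q-value of 10 were left out, the counts at 1 kb were 1 and 2.

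**Figure D1:**
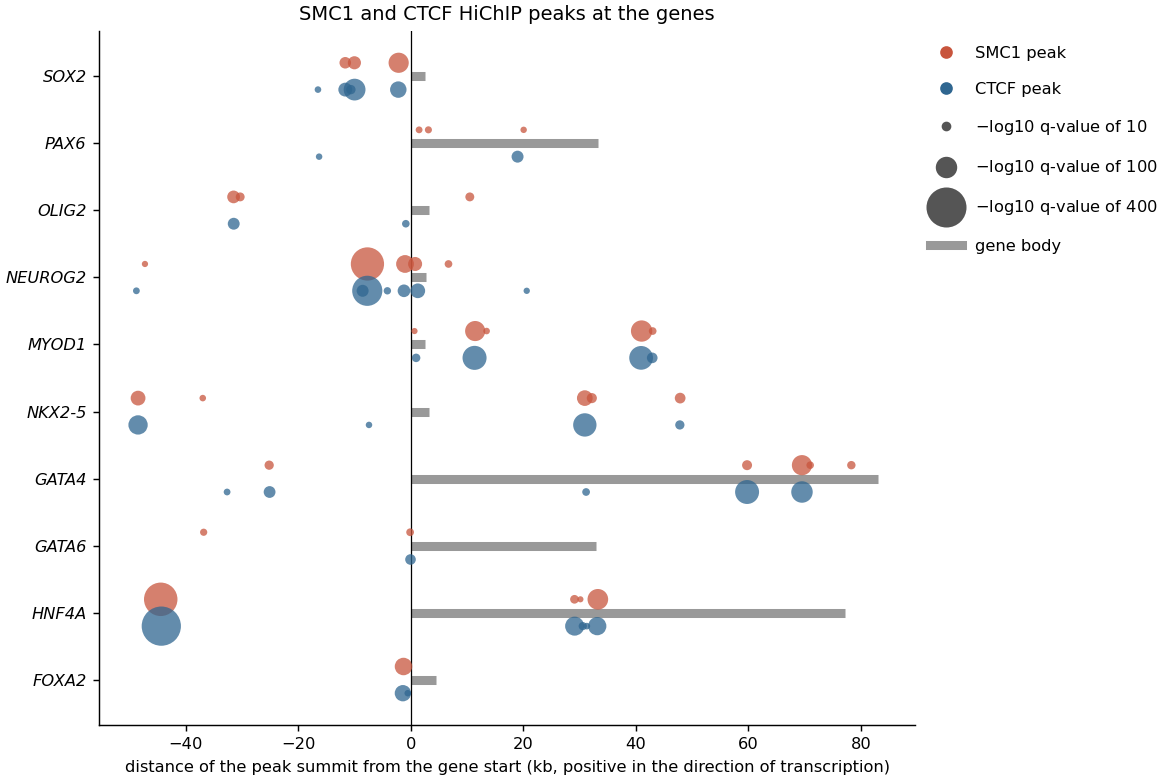
Position of each SMC1 peak (red) and CTCF peak (blue) in the windows of the 10 genes, as the distance of the summit from the gene start in kb, positive in the direction of transcription. The area of a point grows with the -log10 q-value and the grey bar is the gene body. The largest points lie 44.4 kb upstream of HNF4A and 7.70 kb upstream of NEUROG2, and only small points lie at PAX6 and GATA6.

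The plot of peak positions shows that most strong peaks stood away from the starts. In 6 genes, OLIG2, NEUROG2, NKX2-5, GATA6, HNF4A and FOXA2, the strongest SMC1 and the strongest CTCF peak overlapped each other. This count was not made over all protein-coding genes. In 9 of the 10 genes the strongest SMC1 peak overlapped a CTCF peak, with PAX6 the exception, and this held for 92.9% of the 18468 protein-coding genes with an SMC1 peak in their window. Of the 36 SMC1 peaks, 22 overlapped a CTCF peak (61.1%, 95% Wilson interval 44.9 to 75.2%), beside 47.1% of all SMC1 peaks. Of the 37 CTCF peaks, 23 overlapped an SMC1 peak (62.2%, interval 46.1 to 75.9%), beside 75.9% of all CTCF peaks. These intervals cover counting error only. Both intervals hold the share over all peaks, the second only just. The median -log10 q-value was 18.6 for the SMC1 and 32.1 for the CTCF peaks at the genes, and 13.7 and 19.6 over all peaks.

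A CTCF motif of at least 7 bits lay within 50 bp of the summit in 20 of the 37 CTCF peaks (54.1%, interval 38.4 to 69.0%). The share was 36.4% over all CTCF peaks, below this interval, and 20.6% in windows 1000 bp away from them. With at least 10 bits, 9 of the 37 held a match (24.3%, interval 13.4 to 40.1%), beside 18.8% of all peaks and 5.44% of the windows 1000 bp away. With 100 bp on either side of the summit the share was 70.3% (interval 54.2 to 82.5%), beside 56.9% of all peaks. The share at the genes was higher under both of these settings too, but both intervals hold the share of all peaks. With 37 peaks the excess is therefore uncertain. The motif was present in 15 of the 23 CTCF peaks that overlapped an SMC1 peak and in 5 of the 14 that did not. The strongest CTCF peak held a motif in 5 of the 10 genes, OLIG2, NEUROG2, GATA6, HNF4A and FOXA2. Neither this count nor the split by overlap was made over all genes or peaks, so neither is read as a trait of these genes.

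Loops reached the starts of some of the genes only. The list labelled SMC1 had a loop at 4 genes, NEUROG2, GATA4, MYOD1 and FOXA2, where 35.1% of all protein-coding genes had one. The list labelled CTCF had a loop at 6 genes, the same 4 with SOX2 and OLIG2, where 59% of all did. These counts lie near the shares of all genes. PAX6, NKX2-5, GATA6 and HNF4A had no loop in either list. NEUROG2 alone took 20 of the 26 loops labelled SMC1 and 29 of the 44 labelled CTCF. The loops spanned a median of 202.5 kb in both lists, and the loops of the whole lists 130 kb with the SMC1 label and 125 kb with the CTCF label. The median number of read pairs was 22.5 and 26 per loop, close to 21 and 23 over the whole lists.

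**Figure D2:**
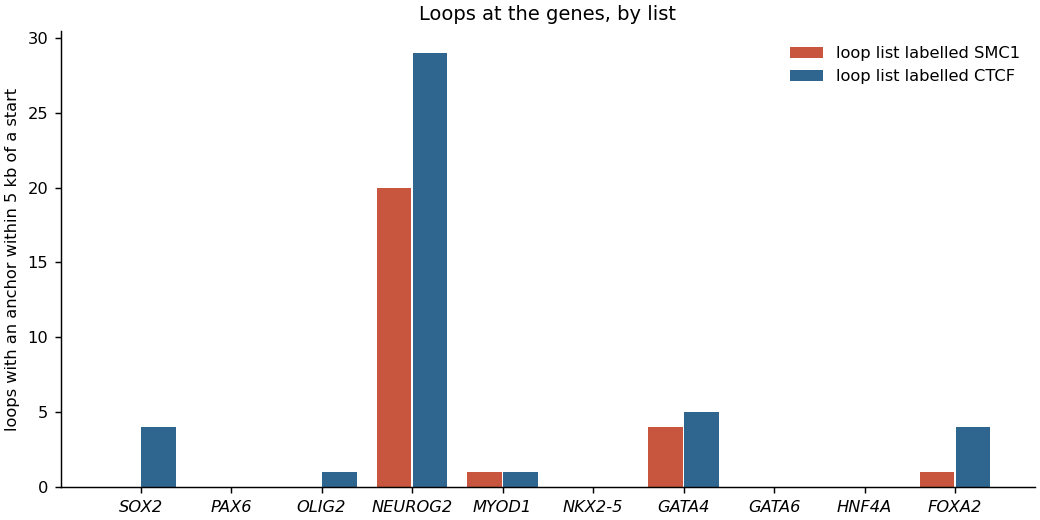
Number of loops with an anchor within 5 kb of a transcript start of each gene, in the list labelled SMC1 (red) and the list labelled CTCF (blue). NEUROG2 has 20 and 29 loops, no other gene has more than 5, and PAX6, NKX2-5, GATA6 and HNF4A have none.

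The count of loops per gene therefore rests on NEUROG2, and each gene is described below with its peaks. SOX2 (chr3:181711925-181714436, plus strand) encodes an HMG-box factor of pluripotent cells and neural progenitors, and lies within the long non-coding gene SOX2-OT. No summit of either target lay within 1 kb of its 1 transcript start. The SMC1 peak 2.15 kb upstream had a -log10 q-value of 106 and a fold enrichment of 7.69, and the CTCF peak 2.22 kb upstream a -log10 q-value of 68.2 and a fold enrichment of 8.93. This is the site with the 17.8 bit motif shown above. The strongest CTCF peak of SOX2 lay farther out, 9.98 kb upstream, with a -log10 q-value of 125 and no motif match.

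The 4 loops of SOX2 were all labelled CTCF and all started from the anchor that holds the motif site. They spanned 550, 910, 975 and 980 kb downstream, with 14, 16, 24 and 12 read pairs, which was 8.24, 10.4, 12.9 and 8.48 times the number expected. Their other anchors held no start of a protein-coding gene. In the list labelled SMC1 the nearest anchor to the SOX2 start lay 1468 kb away. All but the loop of 975 kb thus had fewer read pairs than the median of 23 over that label's list. All 4 had long spans and high ratios to the expected number.

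PAX6 (chr11:31784779-31817961, minus strand), a paired-box factor of the eye, the brain and the pancreas, had weak SMC1 peaks. The 3 SMC1 peaks reached a -log10 q-value of at most 6.70, a level that 73.3% of all SMC1 peaks met or passed. The stronger of its 2 CTCF peaks lay in an intron with a -log10 q-value of 32.7, above the median of all CTCF peaks, and no motif match. No SMC1 peak overlapped a CTCF peak, and none of the peaks lay in a loop anchor. The nearest anchor of either list lay 52.0 kb from a PAX6 start, but 2 loops labelled SMC1 and 13 labelled CTCF passed over the whole gene. PAX6 has 66 annotated transcript starts, the most of the 10 genes.

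OLIG2 (chr21:33025935-33029196, plus strand) encodes a basic helix-loop-helix factor of oligodendrocytes and motor neurons. Its strongest peaks of both targets lay 31.5 kb upstream, with a -log10 q-value of 37.9 for SMC1 and 32.1 for CTCF, over a CTCF motif match of 9.9998 bits. The nearest SMC1 summit lay 10491 bp from the start, with a -log10 q-value of 15.0. A CTCF peak with a -log10 q-value of 8.80 and no motif lay 879 bp from the start. It overlapped the only anchor within 5 kb of the OLIG2 start. The loop there, labelled CTCF, spanned 105 kb downstream with 19 read pairs, 3.28 times the number expected. A further 16 loops labelled CTCF and 2 labelled SMC1 passed over the gene. The site of the strongest peaks lay in an anchor of 2 loops labelled CTCF. The highest of these had 73 read pairs over 135 kb, 8.63 times the number expected.

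NEUROG2 (chr4:112513516-112516180, minus strand), a proneural basic helix-loop-helix factor, had the most loops of the 10 genes. Only 1.23% of protein-coding genes had at least as many loops labelled SMC1 and 1.42% at least as many labelled CTCF. The start of NEUROG2 lay inside an anchor in 1 of its 20 loops labelled SMC1 and 10 of its 29 labelled CTCF. The bin with its strongest peaks, 3821 bp from the start, was an anchor of 19 and 17 loops. The strongest peaks of NEUROG2 were among the highest in both lists and lay in an intron of the antisense gene NEUROG2-AS1. The SMC1 peak 7.70 kb upstream had a -log10 q-value of 301 and a fold enrichment of 7.62. The CTCF peak 7.73 kb upstream had a -log10 q-value of 246 and a fold enrichment of 10.2, and holds the minus-strand motif shown above. Of all peaks, 0.338% in the SMC1 list and 3.01% in the CTCF list had a -log10 q-value at least as high.

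The coding exon of NEUROG2 was itself occupied. A CTCF peak there had a -log10 q-value of 53.0 and a motif of 15.5 bits, 1247 bp from the start. The SMC1 peak that overlapped it had its summit 770 bp from the start and a -log10 q-value of 47.7. A further pair of overlapping peaks lay upstream, the SMC1 summit at 1020 bp with a -log10 q-value of 81.0 and the CTCF summit at 1209 bp with 37.2.

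The NEUROG2 loops ran almost entirely to 1 side. All 20 loops labelled SMC1 and 28 of the 29 labelled CTCF had their other anchor downstream of the gene. Their spans ranged from 160 to 425 kb with the SMC1 label and from 80 to 425 kb with the CTCF label. Those with the most read pairs joined the bin with the peak 7.7 kb upstream to 3 neighbouring bins. In the list labelled CTCF these had 125, 111 and 103 read pairs at spans of 195, 200 and 190 kb, which was 8.18, 6.34 and 10.4 times the expected number. In the list labelled SMC1 the same 3 bin pairs had 46, 53 and 42 read pairs. The other anchors of these loops held no start of a protein-coding gene.

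Among the remaining NEUROG2 loops, some ended at starts of other protein-coding genes. In each list 6 loops ended within 5 kb of such a start, all in bins at TIFA, ALPK1 or AP1AR. This count was not made over all loops, so it is not read as a trait of NEUROG2. One such anchor lay at TIFA and ALPK1, an adaptor and a kinase of NF-kappaB signalling, with 65 read pairs labelled CTCF and 23 labelled SMC1 at a span of 235 kb. Another lay at AP1AR, a regulator linked to the AP-1 adaptor complex, with 34 and 22 read pairs at a span of 290 kb. With the CTCF label, the loops had 2.8 times the expected number at TIFA and ALPK1 and 2.61 times at AP1AR. Both ratios lay below the median of 4.03 over that list. With the SMC1 label the ratios of these loops were 3.97 and 4.02, close to that list's median of 4.0039. A neighbouring bin at TIFA and ALPK1 had a loop labelled SMC1 with more pairs, 27 at 230 kb, and 6.17 times the expected number. The remaining loops of that label at these genes had 4.35, 4.32 and 3.21 times. The loops to TIFA, ALPK1 and AP1AR were chosen after their values were seen. Of the loops labelled SMC1, 15 of 20 joined the same bins as a loop labelled CTCF, and 19 of 20 lay within 15 kb of one at both anchors. Neighbouring bins share read pairs of the same contact and are not independent loops.

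**Figure D3:**
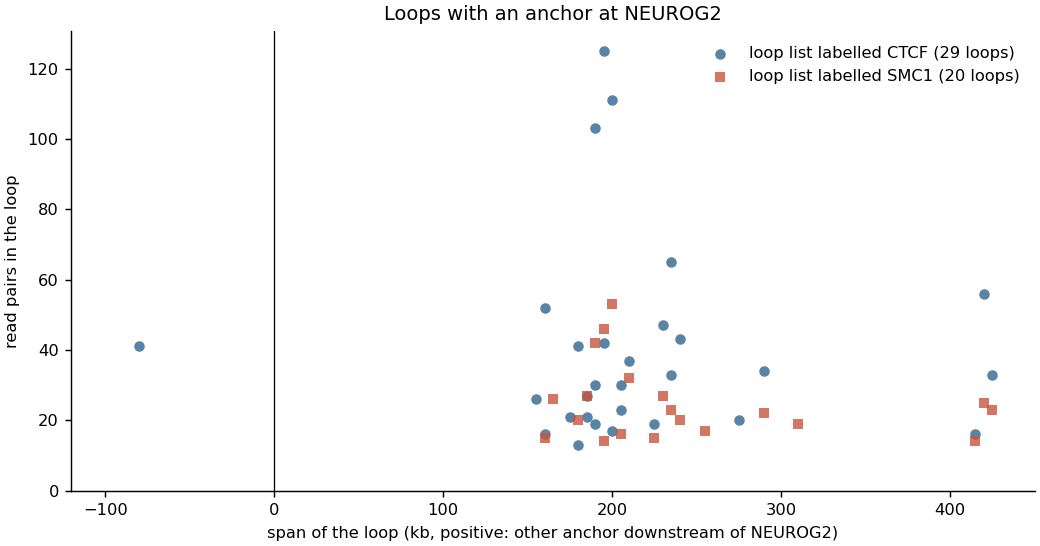
Loops with an anchor at NEUROG2, with the span of the loop in kb on the horizontal axis (positive when the other anchor lies downstream of the gene) and its number of read pairs on the vertical axis. Circles are the 29 loops labelled CTCF and squares the 20 labelled SMC1. All but 1 loop lie on the downstream side, and the loops with the most read pairs span 190 to 200 kb in both lists.

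The plot of the NEUROG2 loops shows further groups of loops near 230 kb and 420 kb in both lists. In the group near 420 kb, the highest loop had 56 read pairs labelled CTCF and 25 labelled SMC1. The 1 upstream loop, labelled CTCF, spanned 80 kb with 41 read pairs and had no match in the other list.

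MYOD1 (chr11:17719571-17722136, plus strand), the basic helix-loop-helix factor of skeletal muscle, had a weak peak of both targets inside the gene. The SMC1 summit lay 663 bp from the start with a -log10 q-value of 3.36, and the CTCF summit 948 bp from it with 13.0. The strongest peaks lay downstream towards KCNC1, a voltage-gated potassium channel gene. The CTCF peak 11.3 kb downstream of the MYOD1 start had a -log10 q-value of 154, and the SMC1 peak 41.0 kb downstream, in an intron of KCNC1, one of 119. Each list held 1 loop at MYOD1, and both joined the same bins over 255 kb downstream. This loop had 26 read pairs labelled CTCF and 13 labelled SMC1, 9.69 and 4.25 times the number expected. The neighbouring strong peaks had loops with more pairs, of which the highest had 164 pairs labelled CTCF and 81 labelled SMC1 at 215 kb, from the intron of KCNC1.

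NKX2-5 (chr5:173232109-173235311, minus strand), a homeobox factor of the heart, had no peak of either target within 7 kb of a start. Its nearest CTCF summit lay 7423 bp away with a -log10 q-value of 4.45. Its nearest SMC1 peak was also its strongest, with a -log10 q-value of 61.2, and overlapped its strongest CTCF peak with 145, 30.9 kb downstream of the gene start. None of its 4 CTCF peaks held a motif. The site of the strongest lay in an anchor of 2 loops in each list, the highest with 36 read pairs labelled CTCF and 21 labelled SMC1, both over 220 kb, but no anchor came nearer than 30.2 kb to a start of NKX2-5.

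GATA4 and GATA6, zinc-finger factors of the heart and the endoderm, differed in where their peaks lay. At GATA4 (chr8:11676959-11760002, plus strand) the strong peaks lay inside the gene. An SMC1 peak 69.5 kb from the gene start had a -log10 q-value of 106 and overlapped a CTCF peak with 121 and a motif of 12.2 bits. The strongest CTCF peak, with 153, lay 59.8 kb from the gene start and held no motif. The nearest SMC1 summit to a start had a -log10 q-value of 12.4, and lay 1246 bp from a transcript start near the 3′ end of the gene. The nearest CTCF summit lay 3892 bp from a start, with a -log10 q-value of 9.38.

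The loops of GATA4 all belonged to this 3′ end. The list labelled SMC1 held 4 and the list labelled CTCF 5, all downstream, with spans of 140 to 200 kb. The 4 joined the same bins in both lists. The loop of 140 kb had the most pairs, 53 labelled SMC1 and 51 labelled CTCF, and started from a bin that also lies within 5 kb of a start of NEIL2, a DNA glycosylase of base excision repair. The loop of 195 kb from the same bin had 24 and 38 pairs. The loops of 145 and 200 kb from the bin that holds the start had 21 and 24 pairs labelled SMC1, and 22 and 12 labelled CTCF. The fifth loop labelled CTCF spanned 180 kb with 16 pairs, and had a loop of the other list within 15 kb at both anchors but none in the same bins. No loop reached the gene start of GATA4, and when the gene start alone was used, 3 rather than 4 of the 10 genes had a loop labelled SMC1 and 5 rather than 6 a loop labelled CTCF, beside 27.9% and 50.2% of all protein-coding genes.

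GATA6 (chr18:22169589-22202528, plus strand) was the gene with peaks of both targets closest to its start. The CTCF summit lay 82 bp from the start with a -log10 q-value of 24.2 and a fold enrichment of 6.99, and the SMC1 summit 115 bp from it with a -log10 q-value of 9.51. The only other peak in the window was an SMC1 peak 36.8 kb upstream with a -log10 q-value of 7.24. No peak lay in a loop anchor, and the nearest anchors lay 209.6 kb away with the SMC1 label and 169.6 kb with the CTCF label. The promoter sequence of GATA6 is given because it is the promoter with both summits in it. The 250 bases before the gene start, chr18:22169339-22169588 on the plus strand of GRCh38.p14 from RefSeq, hold the CTCF motif match of 7.97 bits in capitals.
GATA6: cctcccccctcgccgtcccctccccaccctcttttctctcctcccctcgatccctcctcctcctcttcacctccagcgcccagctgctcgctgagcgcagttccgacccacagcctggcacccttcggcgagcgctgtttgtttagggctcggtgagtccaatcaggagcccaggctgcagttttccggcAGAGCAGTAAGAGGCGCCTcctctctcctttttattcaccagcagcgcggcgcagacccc

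The CTCF summit is base 169 of this sequence and the SMC1 summit base 136, and it has 16 CG pairs. RefSeq promoters were at hand for 5 of the 10 genes.

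HNF4A (chr20:44355699-44432845, plus strand), a nuclear receptor of the liver, the gut and the pancreas, had the strongest peaks of the 10 genes, but they lay at another gene. The SMC1 peak 44.4 kb upstream had a -log10 q-value of 305 and its summit was 67 bp from a start of FITM2, a gene of lipid droplet formation. The CTCF peak there had a -log10 q-value of 422, the fold enrichment was 14.5, and the summit was 169 bp from the FITM2 start. Only 0.318% of all SMC1 and 0.267% of all CTCF peaks reached these levels. Within HNF4A, intronic peaks stood 29.1 and 33.1 kb from the gene start, with CTCF -log10 q-values of 93.8 and 85.7. The nearest SMC1 summit to any HNF4A start, 12298 bp away, had a -log10 q-value of 111. Every peak in the window lay in an anchor of both loop lists, 4 SMC1 peaks and 5 CTCF peaks, yet no anchor came within 5 kb of a start. The nearest lay 11.2 kb away.

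FOXA2 (chr20:22580998-22585455, minus strand), a forkhead factor of the endoderm and the floor plate, had 1 SMC1 and 2 CTCF peaks, all upstream and close to the gene. The SMC1 summit 1.38 kb upstream had a -log10 q-value of 78.2 and a fold enrichment of 8.51. It overlapped a CTCF peak 1.40 kb upstream, with a -log10 q-value of 67.2 and the 17.03 bit motif shown above, and a weaker CTCF peak 539 bp from the start with a -log10 q-value of 4.66. The 4 loops labelled CTCF ran downstream over 240, 245, 250 and 255 kb, with 12, 18, 58 and 19 read pairs, and 3 of them started from the anchor with these peaks. The loop of 250 kb had 17.9 times the number expected, the highest ratio among loops with an anchor within 5 kb of a start of the 10 genes. The 1 loop labelled SMC1 spanned 10 kb with 20 read pairs, with a FOXA2 start within 5 kb of either anchor.

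**Figure D4:**
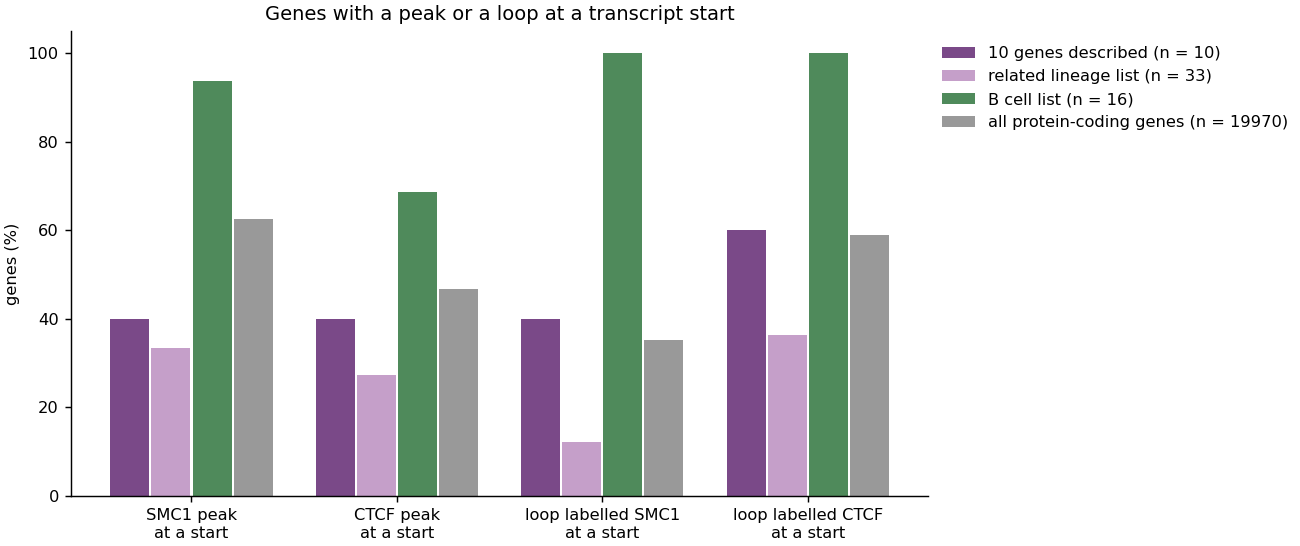
Percentage of genes with an SMC1 or CTCF summit within 1 kb of a transcript start, and with a loop of either list within 5 kb of one, for the 10 genes, 33 related lineage factors, 16 B cell factors and all 19970 protein-coding genes. The B cell factors have the highest bar in each group, between 68.8 and 100%, and the 10 genes lie at 40 to 60%.

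The same counts were made for 33 further transcription factors of neural, muscle, heart and endoderm lineages and for the 16 B cell factors, as the plot of shares by list shows. Of the 33 related factors, 11 had an SMC1 and 9 a CTCF peak at a start, 4 had a loop labelled SMC1 and 12 a loop labelled CTCF. Of the 16 B cell factors, 15 had an SMC1 and 11 a CTCF peak at a start, with BCL6 the 1 gene without SMC1. The median number of SMC1 peaks within 50 kb of the gene start was 3 for the 10 genes, 3 for the related factors, 13.5 for the B cell factors and 6 for all protein-coding genes. For CTCF these medians were 3.5, 3, 8 and 4. The nearest SMC1 summit lay a median of 1.31 kb from a start of the 10 genes, 2.39 kb for the related factors, 0.0955 kb for the B cell factors and 0.432 kb for all protein-coding genes. For CTCF these medians were 1.44, 6.76, 0.190 and 1.34 kb, so the 10 genes lay close to all genes.

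The lists of genes also differed in length and number of starts. The median number of transcript starts was 2 for the 10 genes, 2 for the related factors, 8.5 for the B cell factors and 5 for all protein-coding genes, and the median gene length was 3.86, 6.51, 102 and 27.5 kb. The part of gene length and of the number of starts in the counts was not tested. With the gene start alone, an SMC1 summit lay within 1 kb in 3 of the 10 genes, 10 of the 16 B cell factors and 50.5% of all protein-coding genes. For CTCF the counts were 4 of the 10 genes, 6 of the 16 B cell factors and 33.9% of all. The CTCF count of the 10 genes thus lay near the share of all, as it did with all starts.

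Peaks at the 10 genes lay in loop anchors at shares above those of all peaks, and in 3 of 4 comparisons the interval did not reach the share of all. Of the 36 SMC1 peaks, 19 lay in an anchor labelled SMC1 (52.8%, interval 37.0 to 68.0%) and 25 in one labelled CTCF (69.4%, interval 53.1 to 81.996%), beside 22.03% and 51.2% of all SMC1 peaks. Of the 37 CTCF peaks, 19 lay in an anchor labelled SMC1 (51.4%, interval 35.9 to 66.6%) and 24 in one labelled CTCF (64.9%, interval 48.8 to 78.2%), beside 28.0% and 55.3% of all CTCF peaks. Peaks of 1 gene often shared an anchor, as at HNF4A and MYOD1, so they are not independent, and the intervals do not allow for this. No peak of SOX2, PAX6, OLIG2 or GATA6 lay in an anchor labelled SMC1. The peaks at the genes also had higher median -log10 q-values than all peaks, and the part of this in the shares was not tested.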

How the data were processed

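SMC1 FA-EGS HiChIP and CTCF FA-HiChIP of the HG00731 line had 2 replicates each, pooled by the authors before peaks and loops were called. Alignment to hg38 used BWA-MEM, followed by a filter on mapping quality and removal of duplicates, and MACS3 3.0.1 called the peaks without an input sample. The authors deposited the fold enrichment of each peak as a ratio to the local background, and its significance as the -log10 of its p-value and q-value, of which the q-value was used. Per the file headers, loops carry the raw count of read pairs between bins of 5 kb, and the expected signal of the MAPS model. The false discovery rate, a q-value, that the authors deposited for each loop was not used. The lists do not give the depth of a replicate.

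Genes and transcript starts came from GENCODE release 44, on hg38. The members, the related lineage list and the B cell list were chosen with earlier results of these data known. Overlap meant at least 1 bp. The CTCF matrix was learned by expectation maximisation, with at most 1 site per sequence, from 50 bp on either side of 3000 summits on odd-numbered autosomes. Shares carry 95% Wilson intervals, which cover counting error only. The genes named are all 10 members, with the strongest and the nearest peak of each target, every loop of a gene with 5 or fewer in a list and otherwise the 3 with the most read pairs. The alternatives were stricter q-values, other distances, overlaps and motif minimums, stronger loops only, and exchanged loop lists. The assignment of peaks and loops to genes and the motif search were tested on simulated data, and the overlap shares were not. Python 3.11.15, NumPy 2.4.6, pandas 2.3.3, SciPy 1.17.1, pysam 0.24.0 and Matplotlib 3.10.9 were used. The sequence at 1 CTCF summit of NKX2-5 is not reported here.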

Additional observations from a re-analysis of the deposited data

How the results depend on the processing

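No paired analysis was possible because the deposited lists pool both replicates, and no replicate could be left out for the same reason. Of 52 alternative values, 28 stayed within 1.5 times the reported count or within the interval of the reported share, and 24 did not. Genes with an SMC1 peak at a start numbered 1 of 10 above a -log10 q-value of 10, 2 with a limit of 500 bp and 2 when the peak had to overlap a start, and with a CTCF peak 2, 1 and 1. The share of all protein-coding genes fell too under these settings, for SMC1 to 55.8%, 52.7% and 47.3%, and for CTCF to 35.8%, 37.7% and 28.2%. Windows of 10 kb held 18 SMC1 and 21 CTCF peaks and windows of 100 kb 64 and 67, and 23 SMC1 peaks remained above a -log10 q-value of 10. When a start had to lie inside the anchor, 4 loops labelled SMC1 and 15 labelled CTCF remained, the latter at 3 genes, beside 49.6% of all protein-coding genes. This setting drops the NEUROG2 bin that lies 3821 bp from the start. With the loops below their list's median read pairs left out, there were 15 loops labelled SMC1, at 2 genes beside 26.9% of all, and 25 labelled CTCF. Exchanging the lists gives 44 loops for SMC1 and 26 for CTCF, by construction. Above a -log10 q-value of 10, 82.6% of SMC1 peaks overlapped a CTCF peak. With summits within 100 bp, 44.4% of SMC1 and 43.2% of CTCF peaks had a partner. The motif was in 24.3% of CTCF peaks at a minimum of 10 bits and in 70.3% with 100 bp on either side, where 56.9% of all CTCF peaks and 35.6% of windows 1000 bp away also held it. Where no construction is named, the cause was not tested. The pooled lists give neither replicate error nor depth per replicate, and sites under the authors' q-value threshold are not in them, so a gene without a peak or loop was without one at this depth only.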
